A study of Rattus norvegicus with 9 samples.

Results

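The genes studied here are the 10 that make and remodel fatty acids: Srebf1, Acly, Acaca, Fasn, Elovl6, Elovl5, Scd, Scd2, Fads1 and Fads2. They were chosen by gene name or RefSeq transcript, which gave 17 of the 41012 probes on an Agilent rat whole-genome array of long oligonucleotides; among all genes that could be named there were 15177. The RNA came from peripheral blood mononuclear cells (PBMC), that is lymphocytes and monocytes, purified on Ficoll. The cafeteria group was 5 male Wistar rats given a fat-rich, hypercaloric cafeteria diet beside standard chow, and the control group was 4 male Wistar rats given standard chow alone. Both groups were on their diets for 4 months from the age of 2 months and were bled in the fed state at 6 months, and no genetic change is named for either group. Another control had too little RNA and was left out by the authors. Each array compared the RNA of 1 animal, in Cy5, with a pool of RNA from all groups, in Cy3, and a value below is the log2 ratio of the animal to that pool. The question is which transcripts differ in blood cells of rats made obese by diet.

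Cells build fatty acids from citrate. ATP citrate lyase (Acly) splits citrate into acetyl-CoA, acetyl-CoA carboxylase (Acaca) makes malonyl-CoA from it, and fatty acid synthase (Fasn) joins these units into palmitate. Elongases of the Elovl family lengthen the chain, the stearoyl-CoA desaturases (Scd and Scd2) give it its first double bond, and Fads2 and Fads1, with Elovl5, turn the essential fatty acids of the diet into long polyunsaturated ones such as arachidonic acid. The transcription factor SREBP-1, product of Srebf1, drives many of these genes; in liver it is activated by insulin and restrained by polyunsaturated fat. In leukocytes the pathway supplies membrane lipids and precursors of lipid mediators.

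None of the genes of fatty acid synthesis and desaturation passed the test between the diets. Of the 17 probes, 15, from 9 of the 10 genes, gave enough signal to be tested, and 0 of these 15 had a limma adjusted p under 0.05, against 0.00775% of all 25805 probes tested. At a limma unadjusted p under 0.05 there were also 0 of 15, where the share over all probes was 4.4% (1.54% higher and 2.86% lower in cafeteria animals), and 3 of 15 had one under 0.10, where it was 8.95%. Values of the groups overlapped at all 15 probes, and over all probes tested 1.27% did not overlap. The adjusted p lay between 0.997 and 0.998 at every probe. Fold changes on the log2 scale, cafeteria over control, ran from -0.24 to 0.16, so that no probe differed by more than 0.25, a size exceeded by 6.43% of all probes. With 1 probe per gene, the brightest, 4 genes lay above 0 and 5 below, with a median of -0.015, beside 54.8% above 0 and a median of 0.010 over all 22169 genes and unnamed transcripts; under the alternatives 1 to 6 of the 9 lay above 0. The authors' deposited values put the median of all genes at 0.13 and 77.3% of genes above 0. The sign held under all 23 alternatives for Acly and Scd2, and turned under 2 to 9 of them for each of the other 7 genes. Alternatives of filter or variance prior left these fold changes unchanged, so they could not turn a sign. The rest reuse the same arrays. Replicates are separate animals, and p-values measure the spread between them.

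**Figure D1:**
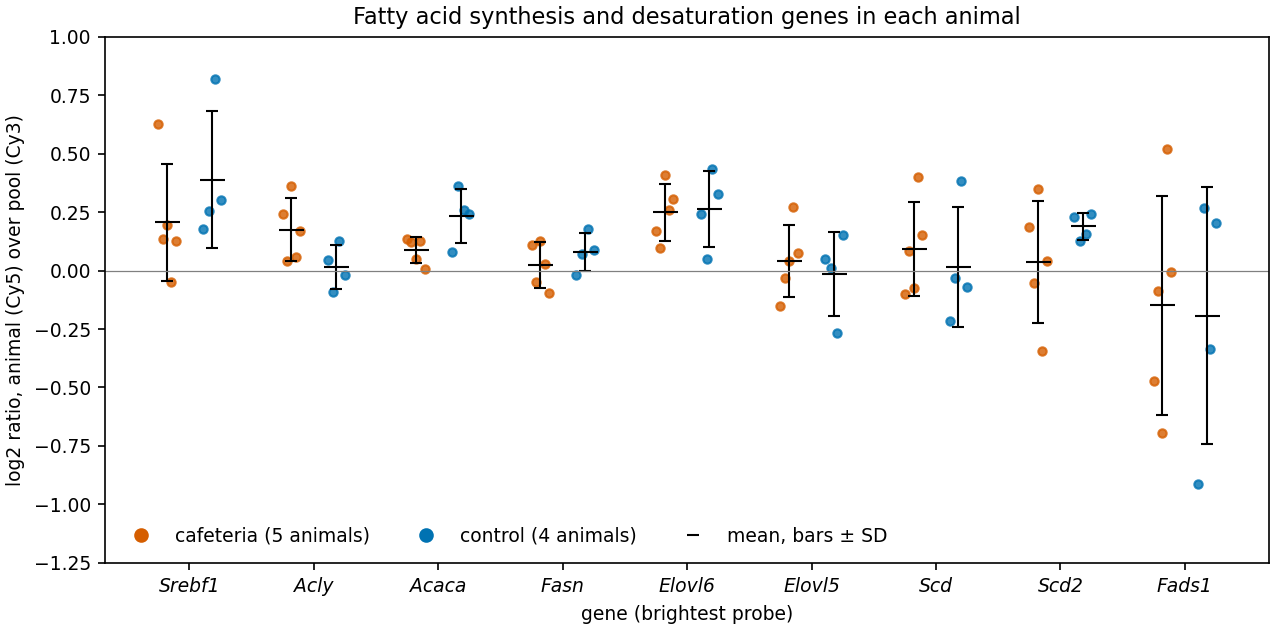
Log2 ratio of each animal to the common pool for the brightest probe of the 9 genes tested, with cafeteria animals (orange, n = 5) left of controls (blue, n = 4); horizontal marks are means and bars are ± SD. The groups overlap for all 9 genes, and Fads1 has the widest spread, from -0.91 to 0.52.

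Per array, 58.8% to 66.7% of spots had a Cy5 signal well above background. Among the marker genes of blood cells, all 7 T cell, 6 cytotoxic T and NK cell and 6 B cell genes on the array were well above background on all 9 arrays, as were 5 of 6 monocyte genes (not Cd163). So were all 6 erythroid and 5 platelet genes on the array and 3 of 5 neutrophil genes. Of the hepatocyte markers, Alb was well above background on 9 arrays, Apoa1 and Fgb on 7 and Ttr on 5. Of the adipocyte markers, Plin1, Lep and Cidec were well above background on 0 arrays and Adipoq on 1, while Fabp4 was on 8 and Retn on 9. In the bulk PBMC used here, fewer cells of a type and less RNA per cell cannot be told apart. All 6 erythroid, 6 cytotoxic T and NK cell and 6 B cell genes tested had a log2 fold change above 0. So had 1 of 5 monocyte genes, but 0 of 7 T cell, 0 of 3 neutrophil and 0 of 5 platelet genes. Over all genes the share was 54.8%. Erythroid list means ran from -0.61 to -0.017 in cafeteria animals and from -1.07 to -0.70 in controls. These did not overlap, beside 1.27% of all probes tested, which are single probes and not list means. The median log2 fold change was 0.54 for erythroid, 0.34 for cytotoxic T and NK cell, 0.30 for B cell, -0.15 for monocyte, -0.22 for T cell, -0.33 for neutrophil and -0.44 for platelet markers. Correlations between these list means and the 9 genes below were taken over the 9 arrays, with both diets combined. Of these 63, 7 had an unadjusted exact permutation p under 0.05 and 0 passed adjustment.

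Srebf1 was measured by 2 of its 3 probes. On the brighter one (rn4, chr10:46462235-46462294, minus strand) the 5 cafeteria animals 1, 4, 7, 10 and 13 stood at 0.63, 0.13, 0.19, -0.049 and 0.13, and controls 1, 4, 7 and 13 at 0.18, 0.26, 0.82 and 0.30. Thus 1 animal of each group, cafeteria 1 and control 7, was high, and 3 cafeteria animals lay below every control. Cafeteria animals averaged 0.21 ± 0.25 (SD, n = 5), against 0.39 ± 0.29 (SD, n = 4) for controls. The difference on the log2 scale was -0.18 (SE 0.16), and its 95% confidence interval, -0.54 to 0.17, is a change of -31.0% to 12.5%. Without control 7 the value was -0.039, and without cafeteria 1 it was -0.29. The second probe (chr10:46463470-46463986) gave -0.091 (SE 0.10), and over the 9 arrays the 2 probes followed each other (Pearson r = 0.81, exact permutation p = 0.00625, adjusted p = 0.0437 over 7 probe pairs; Spearman rho = 0.77, exact p = 0.0214, adjusted 0.150). Without control 7 and cafeteria 1 the r was 0.57. The second probe is printed 10 times per array, and the SD between its spots, 0.013 to 0.089, can be set beside an SD between cafeteria animals of 0.20 and between controls of 0.10. Direction was not settled by slide: on slide 3 the cafeteria animal exceeded the control by 0.45 on the brighter probe, on slide 5 it was below by -0.35, and with slide as a block the value was 0.048. Slides 3 and 5 are the only ones that hold both diets, so a slide-block value, here and below, is the mean of those 2 pairs and rests on 4 of the 9 arrays. That fit leaves very few residual degrees of freedom. Its SE, where given below, therefore comes mostly from the variance prior shared by all probes, not from the gene's own spread. The third probe was well above background on 2 arrays and was not tested.

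RefSeq gives 2 start sites for Srebf1, and no probe here is tied to either. Their promoter windows (250 bases before to 50 after a start, RefSeq on GRCr8, minus strand) are shown because Srebf1 is the regulator of the other genes. Capitals mark CCAAT, the letters bound by NF-Y, a partner of SREBP, which read ATTGG where they lie on the opposite strand, as in both windows here. The first window is chr10:45518961-45519260 and the other is chr10:45529115-45529414.
Srebf1, first window: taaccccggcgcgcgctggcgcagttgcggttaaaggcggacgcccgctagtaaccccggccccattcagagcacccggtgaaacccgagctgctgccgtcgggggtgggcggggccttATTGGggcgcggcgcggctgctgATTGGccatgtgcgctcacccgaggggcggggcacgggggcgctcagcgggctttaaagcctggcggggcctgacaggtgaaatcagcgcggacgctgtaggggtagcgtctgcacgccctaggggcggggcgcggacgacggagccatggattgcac
Srebf1, other window: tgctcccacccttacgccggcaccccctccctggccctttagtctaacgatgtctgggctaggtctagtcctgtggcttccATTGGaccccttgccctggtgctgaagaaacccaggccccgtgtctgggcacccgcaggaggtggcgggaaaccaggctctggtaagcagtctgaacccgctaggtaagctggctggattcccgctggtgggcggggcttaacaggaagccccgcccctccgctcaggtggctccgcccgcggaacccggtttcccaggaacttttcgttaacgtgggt
Windows were found for 7 of the 10 genes (8 windows in all), and not for Fasn, Acaca and Elovl6. CCAAT was in 6 of the 8, beside 37.5% of 33469 RefSeq windows of the same length. The sterol regulatory element TCACNCCAC was in 0 of 8 (1.12% of all windows) and the E-box CACGTG in 1 of 8, that of Elovl5 (6.42%), with both strands searched. No match overlapped another motif. A match here is only a run of letters, and its absence says nothing of the factor outside this window.

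Acly and Acaca, the first steps of the pathway, lay on opposite sides of 0. Acly (chr10:89421079-89421138, minus strand) stood at 0.24, 0.041, 0.36, 0.056 and 0.17 in cafeteria animals 1, 4, 7, 10 and 13 and at 0.044, -0.092, 0.13 and -0.017 in controls 1, 4, 7 and 13. Although 3 of 5 cafeteria animals exceeded every control, the groups overlapped. Means were 0.17 ± 0.13 for cafeteria (SD, n = 5) and 0.016 ± 0.093 for control animals (SD, n = 4). This is a log2 fold change of 0.16 (SE 0.08; 95% interval -0.020 to 0.34; limma unadjusted p = 0.0766, adjusted 0.997). Its sign was positive under all 23 alternatives, with values from 0.073 to 0.30. Not all of these could turn it. The filters, the variance prior and the mean over probes, of which Acly has 1, left the fold change at 0.16. With slide as a block the value was 0.14. The brighter Acaca probe (chr10:72678945-72679004) was at 0.13, 0.12, 0.050, 0.13 and 0.0074 in cafeteria animals and 0.080, 0.36, 0.26 and 0.24 in controls. All cafeteria values lay below those of controls 4, 7 and 13, but control 1 lay among them. Cafeteria animals averaged 0.088 ± 0.056 (SD, n = 5), against 0.23 ± 0.12 (SD, n = 4) for controls. The log2 fold change was -0.15 (SE 0.07; limma unadjusted p = 0.0504, adjusted 0.997), the smallest unadjusted p among these genes and rank 1145 of 25805. The dimmer Acaca probe, 2.25 to 4.08 times its local background, gave -0.013 (SE 0.05), and the 2 probes did not follow each other (r = -0.40, exact permutation p = 0.277; rho = -0.22, exact p = 0.581). On slide 3 the brighter probe differed by 0.053, on slide 5 by -0.11, and with slide as a block the value was -0.030.

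Fasn, the synthase itself, was measured by 2 probes to which the files give no position. On the brighter one cafeteria animals were at 0.11, -0.047, 0.13, 0.030 and -0.097, and controls at -0.019, 0.070, 0.18 and 0.090. Cafeteria 4 and cafeteria 13 lay below every control, control 7 lay above every cafeteria animal, and the other animals overlapped. Cafeteria animals averaged 0.024 ± 0.097 (SD, n = 5), against 0.079 ± 0.080 (SD, n = 4) for controls, a difference of -0.055 (SE 0.07) with an interval of -13.3% to 6.84%. The other Fasn probe gave -0.035 (SE 0.12). On the brighter probe the SE was 0.23 with median centring, so the width of the interval depends on the normalization. With slide as a block the SE was 0.13, which comes mostly from the shared variance prior.

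**Figure D2:**
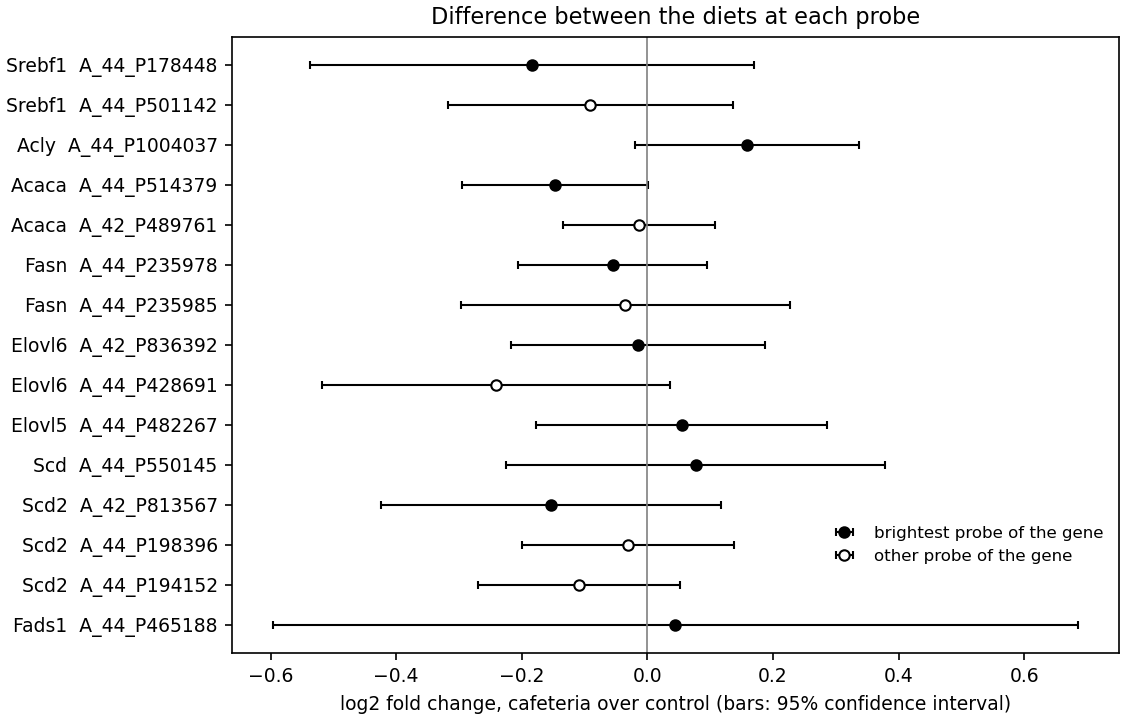
Log2 fold change of cafeteria over control at each of the 15 probes tested, with 95% confidence intervals from the limma fit; filled points are the brightest probe of a gene and open points its other probes. All 15 intervals include 0, from the narrow ones of Acaca and Fasn to that of Fads1, -0.60 to 0.69.

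Among the elongases, Elovl6, which lengthens palmitate to stearate, had 2 probes that differed in their values. On the brighter one (chr2:227054046-227054105) cafeteria animals stood at 0.17, 0.097, 0.41, 0.26 and 0.31 and controls at 0.24, 0.049, 0.44 and 0.33, a difference of -0.015 (SE 0.09). The other, placed upstream over chr2:227047594-227052367, gave -0.24 (SE 0.12; limma unadjusted p = 0.0816, adjusted 0.997), with cafeteria animals at 0.15, 0.029, 0.19, -0.34 and -0.12 and controls at 0.17, 0.016, 0.47 and 0.22. Cafeteria 10 and cafeteria 13 lay below every control, and the other 3 cafeteria animals lay among the controls. That probe was 3.32 to 5.22 times its local background, against 33.3 to 53.5 times for the brighter probe. Elovl5, the elongase of polyunsaturated fatty acids (chr8:82942431-82942490), stood at -0.15, -0.032, 0.043, 0.27 and 0.075 in cafeteria animals and 0.048, 0.013, -0.27 and 0.15 in controls. Its log2 fold change was 0.055 (SE 0.10), and its lowest animal, control 7, was the one in which Srebf1 was highest.

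Scd and Scd2, genes on chromosome 1 for the enzyme that makes oleate, lay on opposite sides of 0. On the Scd probe (chr1:249459057-249459116, minus strand) cafeteria animals were at -0.098, 0.084, -0.073, 0.40 and 0.15, and controls at -0.22, -0.031, 0.38 and -0.069. Cafeteria 10 and control 7 were high, and the log2 fold change was 0.077 (SE 0.14; interval -14.4% to 30.0%). For Scd the slide 3 pair gave 0.12, the slide 5 pair 0.47, and the fit with slide as a block 0.29 (SE 0.15). The brightest of 3 Scd2 probes (chr1:249370837-249370896) was at 0.19, -0.054, 0.35, -0.34 and 0.042 in cafeteria animals and 0.23, 0.13, 0.16 and 0.24 in controls. Controls lay close together, with an SD of 0.056 (n = 4), and cafeteria animals apart, with an SD of 0.26 (n = 5), of which 3 lay below and 1 above every control. The dimmer probes had the wider spread in controls, with an SD of 0.085 in cafeteria animals and 0.13 in controls for one and 0.035 in cafeteria animals and 0.15 in controls for the other. Pearson r over the 9 arrays was 0.46, 0.40 and -0.11 for the 3 pairs of Scd2 probes, and none passed adjustment by the exact permutation test. The means, 0.036 in cafeteria animals and 0.19 in controls, gave -0.15 (SE 0.12; interval -25.5% to 8.52%; -0.058 without cafeteria 10), and the dimmer probes gave -0.11 (SE 0.07) and -0.031 (SE 0.08). For the brightest Scd2 probe the slide 3 pair gave -0.042, the slide 5 pair -0.59, and the fit with slide as a block -0.31 (SE 0.18). In cafeteria 10 Scd was highest and Scd2 lowest among all 9 animals. Across the 9 animals the pair ran in opposite directions (r = -0.70, exact permutation p = 0.0333; rho = -0.75, exact p = 0.0255), a relation that did not pass adjustment over 36 gene pairs (0.354 and 0.459) and kept r = -0.74 without control 7 and cafeteria 10. Those are the animals farthest from the median of Scd.

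The promoter windows of this pair are shown because the genes are paralogs, beside that of Fads1, whose values varied most. Scd2 (GRCr8, chr1:253118127-253118426, plus strand) has CCAAT at 2 places, 97 and 54 bases before its start. Scd (chr1:253231682-253231981, minus strand) has it at 0 places, and Fads1 (chr1:216252442-216252741, plus strand) at 1 place, 121 bases before the start. Capitals mark these letters.
Scd2: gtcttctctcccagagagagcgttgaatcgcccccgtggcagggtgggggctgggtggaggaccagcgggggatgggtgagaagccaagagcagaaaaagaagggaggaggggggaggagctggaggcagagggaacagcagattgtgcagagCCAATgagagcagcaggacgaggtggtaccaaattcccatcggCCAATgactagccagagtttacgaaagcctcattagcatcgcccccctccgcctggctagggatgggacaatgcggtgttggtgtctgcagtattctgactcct
Scd: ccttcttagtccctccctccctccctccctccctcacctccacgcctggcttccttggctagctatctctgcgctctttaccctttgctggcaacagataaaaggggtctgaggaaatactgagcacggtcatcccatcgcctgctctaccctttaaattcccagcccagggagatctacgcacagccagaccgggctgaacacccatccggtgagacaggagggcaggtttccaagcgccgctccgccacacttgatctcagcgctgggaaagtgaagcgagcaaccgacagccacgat
Fads1: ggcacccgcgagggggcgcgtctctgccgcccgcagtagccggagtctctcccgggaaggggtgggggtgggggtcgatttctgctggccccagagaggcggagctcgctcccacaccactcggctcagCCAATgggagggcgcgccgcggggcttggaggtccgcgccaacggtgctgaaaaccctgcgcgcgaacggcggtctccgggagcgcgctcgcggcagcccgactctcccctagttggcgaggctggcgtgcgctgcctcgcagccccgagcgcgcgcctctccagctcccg

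Fads1, the desaturase that completes arachidonic acid, differed more between animals than between diets. On its probe (chr1:212684643-212684702) cafeteria animals 1, 4, 7, 10 and 13 stood at -0.47, -0.088, -0.70, 0.52 and -0.0062, and controls 1, 4, 7 and 13 at -0.91, 0.27, -0.33 and 0.20. The highest animal, cafeteria 10, was 2.70-fold above the lowest, control 1, and both groups held high and low animals. The SD within groups, 0.50 on the log2 scale, was larger than that of 98.0% of all probes tested. Between the diets it differed by 0.045 (SE 0.29, log2 scale), and the interval, -33.9% to 60.9%, leaves a sizeable difference in either direction undetected here. Cafeteria 1 and control 1, both low, were on slide 3, and cafeteria 10 and control 13, both high, on slide 5. Within these slides the differences were 0.44 and 0.32, and with slide as a block 0.38 (SE 0.13), which did not pass adjustment. The SE of that fit comes mostly from the shared variance prior. It was also 0.13 for Acaca, Acly and Fasn, so it does not measure the spread of Fads1. The single Fads2 probe, for the first desaturase of that path, was not well above background on any of the 9 arrays, at 1.00 to 1.28 times its local background, and so gives no fold change.

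**Figure D3:**
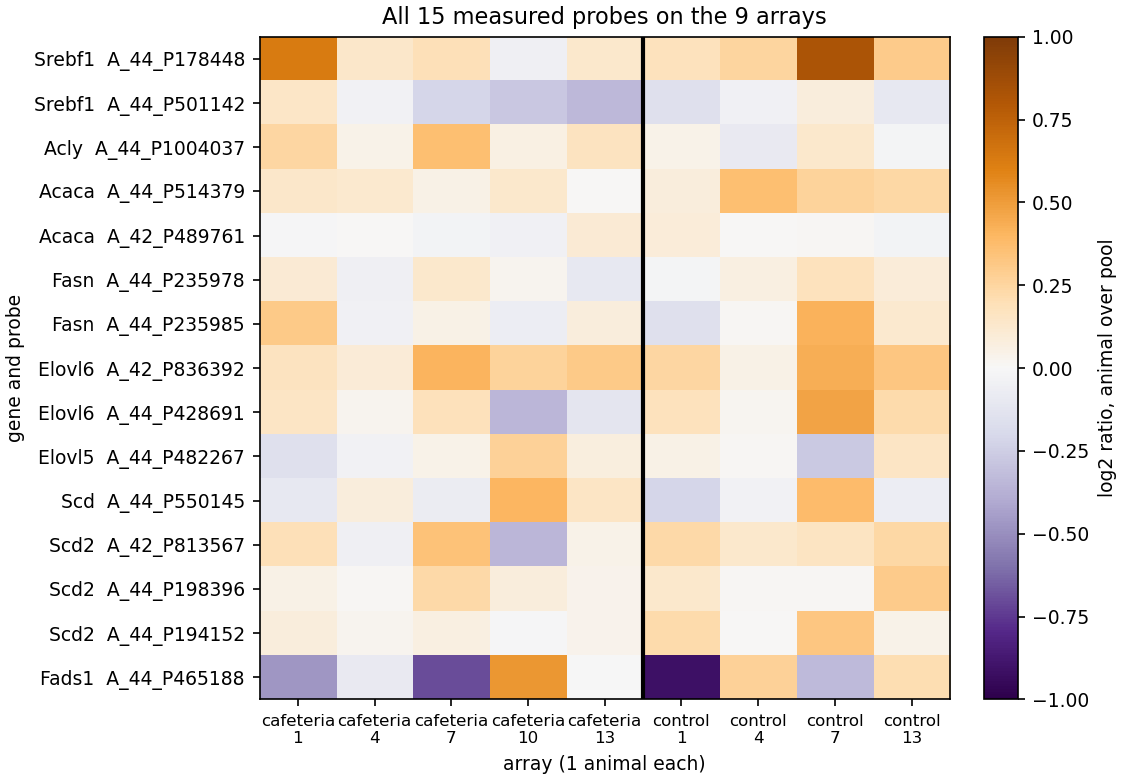
Log2 ratio to the pool for the 15 probes tested (rows) on the 9 arrays (columns), with cafeteria animals left of the black line and controls right of it; orange is above the pool and purple below, on a scale of -1 to 1. Srebf1 is highest in control 7 and cafeteria 1, and Fads1 is lowest in control 1 and highest in cafeteria 10.

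Of the 36 pairs among the 9 genes, 20 had a positive and 16 a negative Pearson r over the 9 arrays, with a median of 0.067. None passed adjustment over the 36 pairs, and 4 had an unadjusted exact permutation p under 0.05. Fasn and Srebf1 were positively related (r = 0.69, exact permutation p = 0.0393, adjusted 0.354; rho = 0.80, exact p = 0.0138, adjusted 0.459; r = 0.74 without cafeteria 4 and cafeteria 13). Those 2 are the animals farthest from the median of Fasn. Control 7 and cafeteria 1, in which Srebf1 was high, stayed in, and an r without them was not computed. Elovl5 and Srebf1 were negatively related (r = -0.88, exact permutation p = 0.00269, adjusted 0.0969; rho = -0.65, exact p = 0.0666, adjusted 0.479), with r = -0.62 without control 7 and cafeteria 10. For Fads1 and Scd2 the r was -0.68 (exact permutation p = 0.0363, adjusted 0.354; rho = -0.62, exact p = 0.0857, adjusted 0.514), and -0.45 without control 1 and cafeteria 10. In these pairs too, the animals left out were those farthest from the median of the gene named first. All pairs share the same arrays and pool, and slides held at most 2 arrays, too few for a value within slides. Each r combines the arrays of both diets, and a relation within each diet was not tested.

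The genes whose ratios were most like those of a given gene over the 9 arrays were looked up among 10409 other genes with a symbol. For Srebf1 they were Adarb1 (r = 0.99), Trmt6 (0.98) and Pecr (0.96). For Fasn they were Plpbp (r = 0.92), Ttc33 (0.89) and Ccsap (0.88), and for Scd2 they were Fanca (r = 0.93), Tle3 (0.90) and Med1 (0.89). These r values share 9 arrays and 1 pool, are the highest of many, and are given as a description.

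Of 70 genes listed by role, 57 were tested, 34 above 0 and 23 below, with a median log2 fold change of 0.020. None passed the adjusted threshold, which 0.00451% of all genes did, and 3 of 57 had an limma unadjusted p under 0.05, beside 4.09% of all genes. Those 3 were Cyb5r3, higher (1.62% of all genes), and Srebf2 and Aacs, lower (2.46%).

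The supply of acetyl-CoA and NADPH had 3 of 8 genes above 0 and none with an limma unadjusted p under 0.05. Malic enzyme Me1, a source of NADPH, stood at -0.44, -0.27, -1.20, 0.69 and 0.17 in cafeteria animals and -0.16, 1.02, 0.11 and 0.061 in controls. Cafeteria 7 was low and control 4 high, and the log2 fold change of -0.47 (SE 0.36) came to 0.17 with slide as a block. The second Me1 probe gave -0.52 (SE 0.35) without the block. The citrate carrier Slc25a1 was at 0.091 (SE 0.08), or 0.043 with slide as a block. In malonyl-CoA handling and mitochondrial synthesis 7 of 10 genes lay above 0. Aacs, which activates acetoacetate for lipid synthesis, averaged -0.097 ± 0.082 in the 5 cafeteria animals and 0.070 ± 0.11 (SD) in the 4 controls, which is -0.17 on the log2 scale (SE 0.07; limma unadjusted p = 0.0391, adjusted 0.997; -0.032 with slide as a block). Acsf3, which makes malonyl-CoA in mitochondria, was at 0.18 (SE 0.10) and Mid1ip1, an activator of the carboxylase, at 0.019 (SE 0.18), with -0.091 (SE 0.09) at its second probe. With slide as a block Acsf3 came to 0.24 and the brighter Mid1ip1 probe to 0.083.

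In the elongation cycle 3 of 8 genes lay above 0, and the values named were -0.18 (SE 0.14) for Hacd3 and -0.044 (SE 0.09) for Hacd2, both dehydratases, -0.085 (SE 0.10) for the reductase Hsd17b12 and 0.028 (SE 0.12) for the reductase Tecr. With slide as a block these came to -0.054 for Hacd3, -0.23 for Hacd2, -0.22 for Hsd17b12 and -0.091 for Tecr. The second Tecr probe gave 0.067 (SE 0.12) without the block. Among desaturase partners and other desaturases 5 of 8 lay above 0. Cyb5r3, the reductase that passes electrons to cytochrome b5 for desaturation, averaged 0.061 ± 0.17 in the 5 cafeteria animals and -0.17 ± 0.12 (SD) in the 4 controls. Its log2 fold change was 0.24 (SE 0.10; limma unadjusted p = 0.0364, adjusted 0.997), with 0.18 at its second probe and 0.13 with slide as a block. Degs2 and Degs1, desaturases of ceramide synthesis, were at 0.24 (SE 0.11) and 0.14 (SE 0.08), coming to 0.20 and about 0 with slide as a block. Cyb5a, cytochrome b5 itself, was at 0.0078 (SE 0.07), or -0.092 with slide as a block.

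Of the regulators 16 of 23 lay above 0. Srebf2, the relative of Srebf1 that governs sterol synthesis, was at -0.46, -0.0050, -0.31, -0.24 and -0.15 in cafeteria animals and 0.44, 0.0088, 0.11 and -0.10 in controls. It differed by -0.35 on the log2 scale (SE 0.12; limma unadjusted p = 0.0167, adjusted 0.997), or -0.52 with slide as a block. Its second probe gave 0.026, so its 2 probes disagree. Insig1, which holds SREBP in the endoplasmic reticulum, was at -0.20 (SE 0.12), with control 7 at 0.67 and all other animals between -0.15 and 0.14, and at -0.013 with slide as a block. Without the block, its other probes gave -0.15 (SE 0.07), -0.10 (SE 0.07) and -0.024 (SE 0.06). Nr1h2, the liver X receptor beta, was at 0.14 (SE 0.07; limma unadjusted p = 0.0833, adjusted 0.997), or 0.17 with slide as a block.

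**Figure D4:**
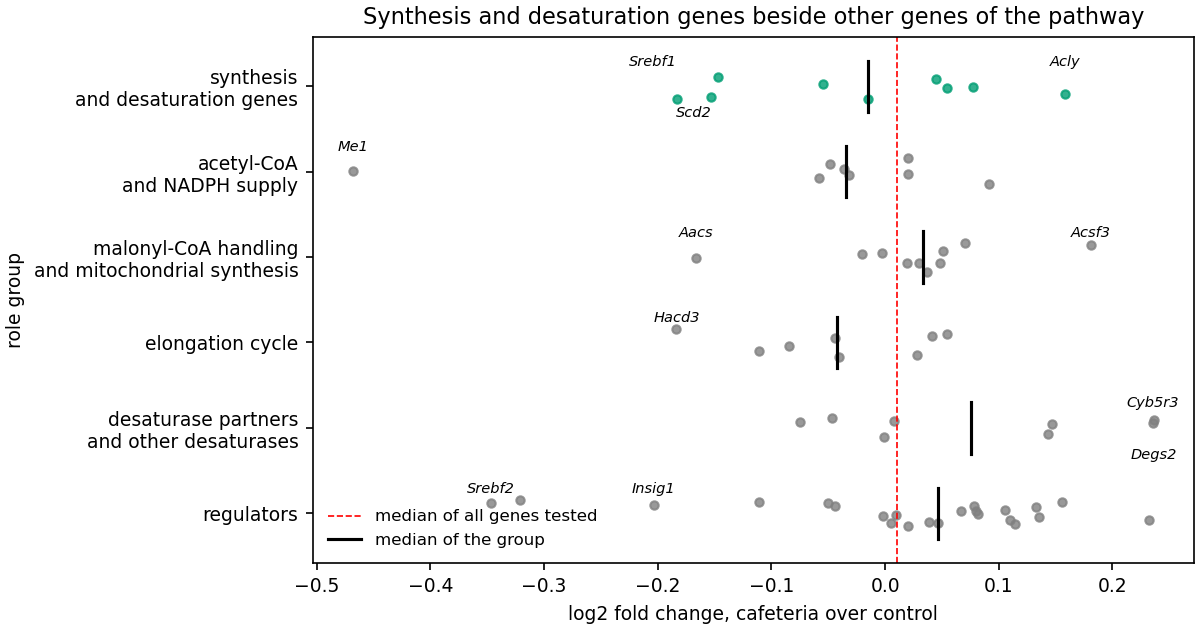
Log2 fold change of cafeteria over control for the 9 genes of synthesis and desaturation (green) and for 57 other genes of the pathway by role (grey), 1 probe per gene; black bars are group medians and the dashed red line is the median over all genes tested, 0.010. Group medians lie between -0.042 and 0.075, and Me1 is furthest from 0 at -0.47.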

How the data were processed

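Scanner files deposited by the authors give the mean spot intensity and median background intensity of both dyes, not normalized, read with Agilent Feature Extraction 9.5.1.1 on build rn4, per the file headers. They also hold a log10 ratio after the software's background subtraction and dye normalization, per the file headers. A table deposited by the authors holds log2 values whose centring is not stated. These followed the Cy5 intensity (rank correlation 0.997 to 0.999), so they were read as Cy5 levels, and their medians per array ran from 9.35 to 9.65.

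Intensities were background-corrected (normexp, offset 50) and log ratios loess-normalized within arrays, with control spots given no weight and outlier spots left out. Probes with Cy5 well above background on at least 4 arrays were kept, which is 25805. Diets were compared with limma 3.58.1 in R 4.3.3 (7 residual and 2.94 prior degrees of freedom), adjusted by Benjamini-Hochberg over all probes with a threshold of 0.05. The fit and the exact permutation tests were tested on simulated data. The changes simulated for the fit were larger than any seen among these genes, so they do not show what it finds at that size. Figures were drawn with matplotlib 3.10.9.

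A gene was represented by its brightest probe. Names were updated through a RefSeq table (GRCr8), which named 47.4% of probes. Positions are the files' own on rn4, and exon or untranslated region is not given in the sources used here. The 10 genes are named with all their probes. Of the 70 other genes, the 2 brightest and the 2 of smallest p in each role group are named, apart from 1 that is not reported here, and the 3 genes most like Fasn, Srebf1 and Scd2. Members and lists were chosen with earlier results of these data known. The number of arrays limits the precision. Alternatives were background correction, normalization, reference channel, the authors' values, filter, slide, replicate number, variance prior, choice of probe and leaving out each array.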

Additional observations from a re-analysis of the deposited data

How the results depend on the processing

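The adjusted threshold was passed by 0 probes of these genes under the 20 alternatives that give a test; the mean over a gene's probes and the values within slides 3 and 5 give none. Over all probes the 2 calls became 0 without background correction, with the scanner's log ratio, median centring, Cy5 alone, the authors' values (also centred, an alternative chosen after seeing the data), slide as a block, the replicate block and a trended robust prior, and 0 to 2 when 1 array was left out. Of the 9 genes, 4 lay above 0, but 2 without background correction, with the scanner's log ratio and with Cy5 alone, 1 (without cafeteria 10, and with the replicate block, which drops that array) to 5 when 1 array was left out. The median log2 fold change stayed between -0.088 and 0.052.

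Signs turned as follows, and the cause was not tested. Elovl5 was at -0.026 when no background was corrected, -0.043 with the scanner's log ratio, -0.041 with Cy5 alone and with slide as a block, -0.11 with the authors' values centred, -0.20 within slide 3 and -0.030 to 0.11 when 1 array was left out. Fads1 was at -0.16 when no background was corrected, -0.18 with the scanner's log ratio, -0.20 with Cy5 alone, -0.12 with the authors' values, -0.25 with these centred, and -0.19 (without control 1) to 0.20 (without control 4). Elovl6 came to 0.052 with median centring, 0.14 with the authors' values, 0.018 with these centred, and -0.087 to 0.042 when 1 array was left out. Acaca came to 0.053 within slide 3 and 0.035 with the authors' values, but to -0.088 with these centred. In the authors' uncentred values the median of all genes was itself 0.13. Fasn came to 0.13 within slide 3 and 0.034 with slide as a block. With the authors' values Fasn came to 0.088, but to -0.035 with these centred. Srebf1 came to 0.45 within slide 3 and 0.048 with slide as a block. Scd came to -0.00087 (without control 1) to 0.20 (without control 7).

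Both groups carry array numbers 1, 4, 7 and 13. Deviations of same-numbered arrays correlated at -0.048, 0.11, 0.099 and -0.15, and only cafeteria 4 correlated best with its own number. The labels do not say whether the numbers pair the animals, and weak correlations over so few arrays cannot decide it. The replicate block gives no weight to cafeteria 10, which shares its number with no control. Elovl5 came to -0.0029, Fads1 to -0.12 and Scd to -4.77e-05 with the block, the same fold changes as without cafeteria 10 and no block, and there was no call. Low signal limits Fads2 and the third Srebf1 probe, which were measured too near background to compare.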

Other observations

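Levels of these genes were set against the mean of each blood cell marker list over the 9 arrays, a comparison chosen after seeing the data. Of 63 pairs 7 had an unadjusted exact permutation p under 0.05, and none passed adjustment. Acly was negatively related to platelet markers (Pearson r = -0.84, exact permutation p = 0.0057, adjusted 0.241; Spearman rho = -0.75, exact p = 0.0255, adjusted 0.389), with r = -0.62 without control 4 and cafeteria 7. It was likewise negatively related to neutrophil markers (r = -0.81, exact permutation p = 0.00764, adjusted 0.241; rho = -0.70, exact p = 0.0433, adjusted 0.389), where r was -0.32 without cafeteria 1 and cafeteria 7, so that relation rests on those animals. Acly and monocyte markers had r = -0.73 (exact permutation p = 0.0254, adjusted 0.270; rho = -0.72, exact p = 0.0369, adjusted 0.389), and r = -0.71 without cafeteria 1 and cafeteria 4. Acaca and cytotoxic T and NK cell markers had r = -0.76 (exact permutation p = 0.0159, adjusted 0.270; rho = -0.80, exact p = 0.0138, adjusted 0.290), and r = -0.73 without control 4 and cafeteria 7. The other 3 pairs were Acly with cytotoxic T and NK cell markers (r = 0.75, and 0.049 without control 4 and cafeteria 7), Srebf1 with B cell markers (r = -0.70) and Fads1 with platelet markers (r = 0.69). The animals left out were those farthest from the median of the marker list mean, not of the gene. Slides held at most 2 arrays, too few for a value within slides. Each r combines the arrays of both diets, and the permutations ran over all 9 arrays. The log2 fold change between diets was 0.16 for Acly and -0.15 for Acaca. The median was -0.44 for platelet, -0.33 for neutrophil, -0.15 for monocyte and 0.34 for cytotoxic T and NK cell markers. Each r thus mixes differences between diets with differences between animals. A relation within each diet was not tested.

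Fads1, the gene with the widest spread between animals, was most like Rasgrp3 (r = 0.94), Gpt2 (0.94) and Ecm1 (0.94) over the 9 arrays, a look-up added after its values were seen.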
